A study of Mus musculus with 36 samples.

Results

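The genes described here are imprinted genes, which are read mainly from the maternal or mainly from the paternal chromosome. They were taken from a list of 40 gene symbols, and 34 of these had a probe set with a single annotated symbol, out of 19938 genes measured in all. Where a gene had several such probe sets, the one with the highest mean stood for it. By textbook assignment 19 of the 34 measured genes are expressed from the paternal allele and 15 from the maternal allele. Snrpn, Ube3a, Gnas and Mirg lay only on probe sets that carry several symbols, and H19 and Zrsr1 are unnamed here, so these 6 listed genes entered no comparison.

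The study profiled germ cells and supporting cells, the somatic lineage of Sertoli and granulosa cells, flow sorted from gonads of fetal mice. Its 12 groups of arrays are the combinations of cell type, XX or XY sex chromosomes, and stage, which is 11.5, 12.5 or 13.5 days post coitum (dpc). Each group had 3 arrays, and the array labelled germ XX 12.5 dpc replicate 3 was left out by the rule for this gene set, which left 35 arrays. Gonads of 1 sex were pooled before sorting. Germ cells carried an Oct4 reporter in all 6 of their groups, with the strain given as offspring of C57BL/6NJ on a mixed background. Supporting cells came from Tg(Sry-EGFP)92Ei mice, offspring of CD-1, for XX gonads at all stages and for XY gonads at 11.5 dpc. At 12.5 and 13.5 dpc XY supporting cells came from Tg(Sox9-cre/ERT2)1Msan/J mice, offspring of C57BL/6, so sex cannot be told apart from reporter line and strain in supporting cells at those stages. In the same way cell type cannot be told apart from reporter line and strain between germ and supporting cells. Whether a group's arrays hold separate pools of gonads is not stated in the labels, and p-values therefore cover the spread between the samples at hand, which may be technical.

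An imprint is DNA methylation laid down on a control region in the germ line of 1 parent and kept through the divisions of somatic cells. Primordial germ cells erase these marks around the time they settle in the gonad, after which both alleles of an imprinted gene can be read or silenced alike, and new marks follow the sex of the fetus later. Many imprinted genes act on fetal and placental growth, and they lie in clusters that share a control region. The arrays measured neither methylation nor the parental allele, so erasure itself was not observed, and each value is the total RNA of both alleles.

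Values are log2 expression, so a difference of 1 is a doubling of signal. Array medians lay between 6.54 and 7.01 and correlations within a group between 0.963 and 0.991. With 3 arrays in a group the precision of each mean is limited. A gene counts as called where limma's Benjamini-Hochberg adjusted p, over all 19938 genes, was under 0.05. In the alternative settings arrays were centred on their medians, quantile normalised, or corrected for a step between sets of table rows in the deposited values (row sets aligned). The mean of 12 germ cell markers was 9.66 to 10.28 in the 17 germ cell arrays used and 5.68 to 6.64 in the 18 supporting cell arrays. The mean of 10 supporting cell markers was 6.42 to 7.13 in germ cells and 8.91 to 9.77 in supporting cells. In the left-out array the germ cell marker mean was 5.78 and the supporting cell marker mean 9.27. Its mean of 7 interstitial or stromal markers was 9.82, and no germ cell array used exceeded 7.43. In bulk samples such as these, fewer cells of a type and less RNA per cell cannot be told apart.

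The promoter sequences of 4 genes are shown because Phlda2 and Plagl1 led the differences between XY and XX germ cells, and Zim1 and Peg3, neighbours in a single imprinted cluster, were among the leading differences in supporting cells. Each is the 250 bases before an annotated start in RefSeq (GRCm38.p6), 5′ to 3′ on the gene's own strand. Every CG pair, the site of mammalian DNA methylation, is in capitals. The annotated gene can reach further than that start. For Phlda2 it extends to 143503145, so the whole window lies inside it. Those of Zim1 (gene to 6696540) and Peg3 (gene to 6730462) overlap the gene in part. The windows are chr7:143502525-143502774 on the minus strand for Phlda2, chr10:13090582-13090831 on the plus strand for Plagl1, chr7:6696433-6696682 on the minus strand for Zim1 and chr7:6730420-6730669 on the minus strand for Peg3.
Phlda2: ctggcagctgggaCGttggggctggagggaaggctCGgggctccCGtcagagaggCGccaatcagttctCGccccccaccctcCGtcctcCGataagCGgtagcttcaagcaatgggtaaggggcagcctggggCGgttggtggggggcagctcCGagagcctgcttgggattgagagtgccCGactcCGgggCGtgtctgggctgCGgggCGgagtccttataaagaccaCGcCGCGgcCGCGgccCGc
Plagl1: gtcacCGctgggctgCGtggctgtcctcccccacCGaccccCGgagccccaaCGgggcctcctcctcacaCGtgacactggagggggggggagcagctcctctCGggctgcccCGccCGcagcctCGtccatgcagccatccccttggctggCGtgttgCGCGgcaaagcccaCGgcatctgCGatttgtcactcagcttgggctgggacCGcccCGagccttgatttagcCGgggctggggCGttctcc
Zim1: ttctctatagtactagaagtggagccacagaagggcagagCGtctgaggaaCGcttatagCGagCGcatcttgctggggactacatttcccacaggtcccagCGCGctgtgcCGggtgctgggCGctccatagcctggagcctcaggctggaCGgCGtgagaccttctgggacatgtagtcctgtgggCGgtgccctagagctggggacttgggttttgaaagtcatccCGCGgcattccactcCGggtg
Peg3: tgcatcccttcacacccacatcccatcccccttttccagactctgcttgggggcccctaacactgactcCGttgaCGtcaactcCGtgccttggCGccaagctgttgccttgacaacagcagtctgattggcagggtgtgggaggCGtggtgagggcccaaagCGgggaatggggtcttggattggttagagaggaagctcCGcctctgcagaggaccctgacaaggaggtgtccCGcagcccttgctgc

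The Phlda2 window held 21 CG pairs, that of Plagl1 19, that of Zim1 14 and that of Peg3 8. RefSeq promoter windows were matched for 28 of the 34 genes, with 40 windows in all, and these held a median of 9 CG pairs (range 0 to 40), against 6 over the 32851 windows of 27025 genes. The motif TGCCGC, the core of the sequence bound by the imprint-protecting factor ZFP57 when methylated, was searched on both strands and may overlap other motifs. It was found in 6 of the 40 windows, or 15.0%, and in 8.68% of all windows. Plagl1 and Zim1 each held 1 match, while Phlda2 and Peg3 held none in these windows. A match is a description of the letters and not a measured site.

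At 11.5 dpc no imprinted gene was called between XY and XX germ cells. There 0 of 34 genes passed limma's test, where 0.0251% of all genes did. An unadjusted p under 0.05 was found for 2 of the 34 and for 586 of all 19938 genes. The count of calls was also 0 with arrays centred, quantile normalised or row sets aligned, and with all 36 arrays. Phlda2, a maternally expressed gene whose product restrains placental growth, stood at 10.47, 9.66 and 9.89 in XX and at 9.39, 9.08 and 9.27 in XY germ cells. All 3 XX arrays lay above all 3 XY arrays, yet the difference of -0.76 (SE 0.22) did not pass (limma adjusted p = 0.997). It was the largest in size among the 34 genes, whose other differences lay between -0.36 and 0.51.

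At 12.5 dpc Phlda2 was 8.02-fold lower in XY than in XX germ cells, and 3 paternally expressed genes were lower too. Of the 34 genes 4 passed the test, all lower in XY, where 1.8% of all genes passed, 0.426% as higher and 1.37% as lower. Phlda2 stood at 9.86 and 9.74 in the 2 XX arrays used and at 6.64, 7.10 and 6.66 in XY. The XY arrays were all far below the XX arrays, and below every germ cell array of 11.5 dpc. The log2 difference was -3.0 (SE 0.25, adjusted p = 2.26e-12). Plagl1, which encodes a zinc finger transcription factor, stood at 8.92 and 9.73 in XX and at 7.63, 8.22 and 7.43 in XY. Its groups did not overlap, and the difference was -1.56 (SE 0.29, adjusted p = 0.000762). Impact, a regulator of translation under stress, stood at 10.58 and 10.32 in XX and at 9.01, 9.46 and 9.44 in XY. Here too the groups did not overlap, with a difference of -1.15 (SE 0.24, adjusted p = 0.00383). Ndn, a gene of the Prader-Willi cluster, differed by -1.01 (SE 0.28, adjusted p = 0.0472), and its call was lost with row sets aligned (-0.78, adjusted p = 0.0764) and without any 1 of 12 arrays (-1.26 to -0.63).

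The 12.5 dpc counts depend on the XX side, which had 2 arrays. With the left-out array back in the fit 14 of the 34 genes passed and Phlda2 was at -1.94 (adjusted p = 0.00658). Without XX replicate 2, 2 genes passed, and Plagl1 (-1.16, adjusted p = 0.208) and Ndn (-0.75, adjusted p = 0.509) were lost. Without XX replicate 1 Impact was lost (-1.02, adjusted p = 0.0748), and Ndn too. In XX replicate 2 the stromal marker mean was 7.43, against 6.88 in XX replicate 1 and 6.73 to 6.76 in XY, and 1 of 7 stromal markers was lower in XY. Igf2, at 8.67 in replicate 2 and 7.29 in replicate 1, and Mest, at 9.46 and 7.84, differed between these arrays in the same direction. The part of stromal RNA in these results was not tested. With arrays centred 2 further genes passed as higher in XY, Tssc4 (0.78) and Usp29 (0.79), so the split was 2 higher and 4 lower. With quantile normalisation it was 1 higher and 4 lower, and with row sets aligned 0 higher and 7 lower.

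By 13.5 dpc Phlda2 was 12-fold lower in XY germ cells, and genes of both directions had joined it. Of the 34 genes 7 passed, 5 lower and 2 higher in XY, where 9.21% of all genes passed, 5.28% as higher and 3.93% as lower. The paternally expressed genes gave 6 of these calls (of 19) and the maternally expressed genes 1 (of 15). With the left-out array in the fit 4 passed.

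Phlda2 stood at 9.83, 10.02 and 8.71 in XX and at 5.77, 5.86 and 6.17 in XY germ cells of 13.5 dpc. The XY values reached the range of supporting cells, 5.85 to 6.69, with 1 XY array below it. They also lay below the array medians of 6.54 to 7.01, where signal is weak. The log2 difference was -3.58 (SE 0.22, adjusted p = 9.4e-18). Plagl1 stood at 9.26, 8.75 and 8.62 in XX and at 6.87, 7.0 and 7.20 in XY. No array of 1 sex reached the other, and the difference was -1.86 (SE 0.26, adjusted p = 6.59e-07). Slc38a4, an amino acid transporter gene read from the paternal allele, stood at 9.69, 10.22 and 9.49 in XX and at 7.39, 8.40 and 8.61 in XY. The groups again did not overlap, with XY replicate 1 lowest, and the difference was -1.67 (SE 0.24, adjusted p = 8.68e-07).

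Mest, a paternally expressed gene of the alpha/beta-hydrolase family, went the other way. It was 2.96-fold higher in XY germ cells, with a difference of 1.57 (SE 0.27, adjusted p = 3.31e-05), and its XY arrays (8.12, 9.30 and 8.73) lay above its XX arrays (7.66, 6.85 and 6.95). Peg10, a gene of retrotransposon origin needed for the placenta, was higher by 0.92 (SE 0.26, adjusted p = 0.0157). Its XX arrays stood at 8.22, 6.64 and 6.51 and its XY arrays at 8.01, 7.89 and 8.26. XX replicate 1 lay within the XY range and the other XX arrays below it, and the call was lost without XX replicate 2 (0.68, adjusted p = 0.187), XX replicate 3 (0.62, adjusted p = 0.268) or XY replicate 3 (0.82, adjusted p = 0.0959). In replicate order, the stromal marker mean of these arrays was 7.15, 6.57 and 6.29 in XX and 6.38, 7.0 and 6.91 in XY. By limma's test 0 of 7 stromal markers differed between the sexes here. The part of stromal RNA in the Mest and Peg10 differences was not tested. The growth factor gene Igf2 was lower in XY by a log2 difference of -1.03 (SE 0.24, adjusted p = 0.00203). The zinc finger gene Peg3 was lower by a difference of -0.64 (SE 0.20, adjusted p = 0.0307), a call lost in a fit of only the 6 arrays compared (adjusted p = 0.128) and without 4 of these arrays in turn (-0.64 to -0.53).

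**Figure D1:**
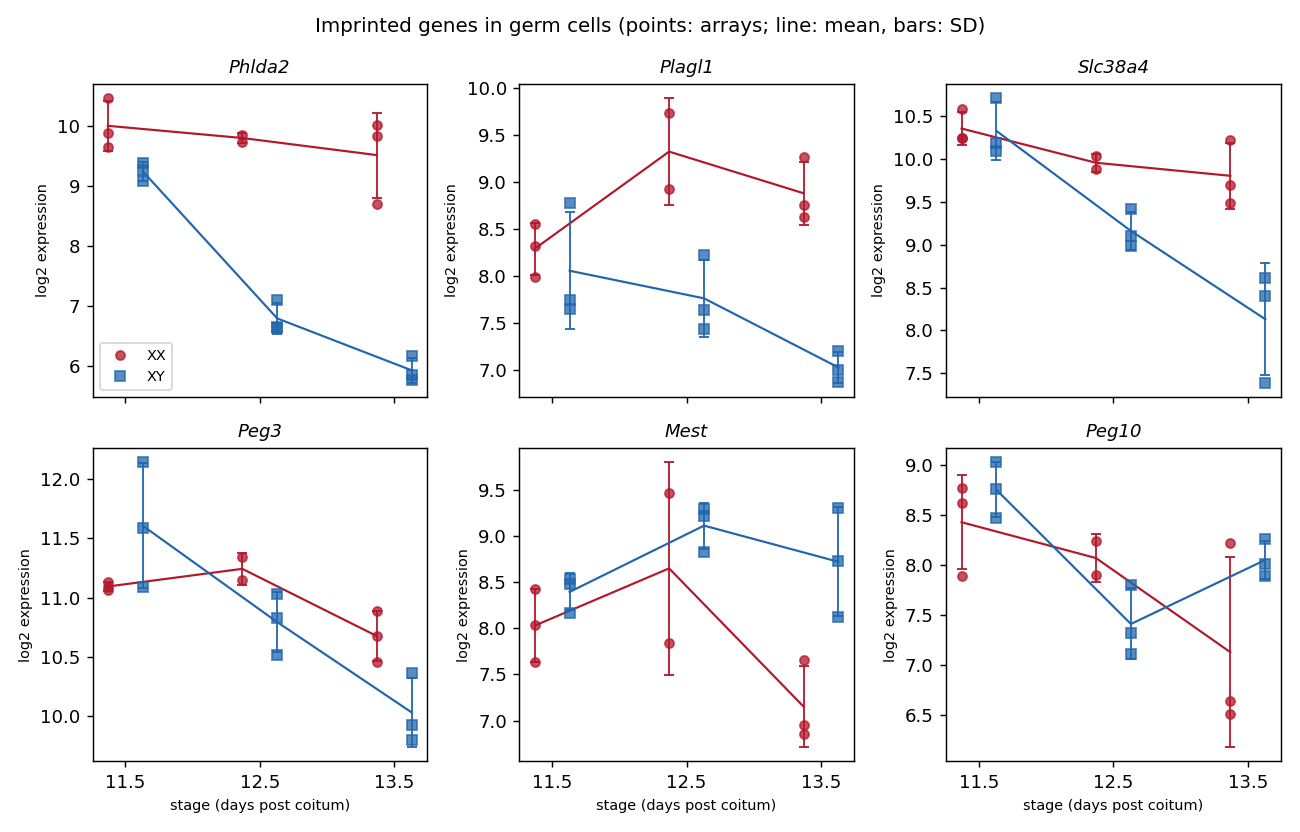
Log2 expression of 6 imprinted genes in germ cells by stage in dpc, with a point per array (red circles XX, blue squares XY, 2 XX arrays at 12.5 dpc), lines through the group means and bars of 1 SD. The XY values of Phlda2 drop from 9.08 or higher at 11.5 dpc to 6.17 or lower at 13.5 dpc while the XX values stay at 8.71 or higher, and Mest lies higher in XY at 13.5 dpc.

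The cluster neighbours of Phlda2 among the 34 genes gave no call between the sexes of germ cells at 13.5 dpc. The Kcnq1 cluster holds 7 of the 34, and at 13.5 dpc the other 6 differed between XY and XX germ cells by -0.0032 to 0.30. Imprinted genes of the further list described below were not counted as neighbours here. None of these 6 passed the test, also with arrays centred, quantile normalised or row sets aligned. They are Kcnq1, a potassium channel gene, Cd81, a tetraspanin gene, the trophoblast factor gene Ascl2, the transporter gene Slc22a18, the nucleosome assembly gene Nap1l4, and Tssc4. In the Peg3 cluster the zinc finger gene Zim1 was at -0.29 (adjusted p = 0.592) and the deubiquitinase gene Usp29 at 0.55 (adjusted p = 0.137), and Usp29 passed as higher with row sets aligned (0.64, adjusted p = 0.0082). Beside Peg10, its neighbour Sgce, the epsilon-sarcoglycan gene, was at 0.26 (adjusted p = 0.569).

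Within XX germ cells 3 genes fell from 11.5 to 13.5 dpc, all of them paternally expressed. These were 3 of 34, or 8.82%, where 15.3% of all genes passed, 5.83% as higher and 9.47% as lower, so the share lay below the background. Of the 19 paternally expressed genes they made up 15.8%, which was near that background. The median change of the 34 genes was -0.30, and that of all genes -0.14, which shrank to -0.03 with row sets aligned. Peg10 stood at 7.89, 8.77 and 8.62 at 11.5 dpc and at 8.22, 6.64 and 6.51 at 13.5 dpc. The stages overlapped through replicate 1 of each, and the change was -1.30 (SE 0.26, adjusted p = 0.000234). Impact stood at 10.88, 10.36 and 10.44 and then at 9.43, 8.90 and 9.47. All later arrays lay below all earlier ones, a change of -1.29 (SE 0.22, adjusted p = 1.17e-05). Mest went from 7.63, 8.42 and 8.04 to 7.66, 6.85 and 6.95, where 1 later array overlapped the earlier ones. Its change was -0.88 (SE 0.27, adjusted p = 0.0186), lost without replicate 2 of 11.5 dpc (-0.68, adjusted p = 0.122) or without replicate 2 or 3 of 13.5 dpc (-0.73 and -0.77).

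The number of calls in XX germ cells moved with single arrays and with scaling. Without 13.5 dpc replicate 1 it was 5 and with all 36 arrays 1. With row sets aligned it was 7, 2 higher and 5 lower. The 2 higher genes were Plagl1 (0.85, adjusted p = 0.00728) and Cd81 (0.62, adjusted p = 0.000658). On the deposited scale Plagl1 was at 0.59 (adjusted p = 0.127) and Cd81 at 0.28 (adjusted p = 0.399).

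In XY germ cells 7 of the 34 genes fell over the same days and 0 rose, where 7.1% of all genes passed, 2.9% as higher and 4.2% as lower. Phlda2 fell from 9.39, 9.08 and 9.27 to 5.77, 5.86 and 6.17, with no overlap. This was a 9.93-fold fall, a change of -3.31 (SE 0.22, adjusted p = 2.99e-16). Slc38a4 fell from 10.71, 10.18 and 10.09 to 7.39, 8.40 and 8.61, also with no overlap. Its change was -2.19 (SE 0.24, adjusted p = 1.06e-09), or 4.58-fold. Peg3 fell from 11.59, 11.09 and 12.14 to 9.80, 9.93 and 10.36. The earlier arrays all lay above the later ones, with replicate 3 highest, and the change was -1.57 (SE 0.20, adjusted p = 7.38e-08).

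The other 4 falls in XY germ cells were smaller. Plagl1 changed by -1.03 (adjusted p = 0.00653), Impact by -0.90 (adjusted p = 0.00364), Grb10, an adaptor gene that dampens insulin and growth factor signalling, by -0.90 (adjusted p = 0.0182), and Ppp1r9a, the neurabin gene, by -0.84 (adjusted p = 0.0106). Without replicate 3 of XY 11.5 dpc the count was 4, and Plagl1 (-0.67), Grb10 (-0.56) and Ppp1r9a (-0.51) no longer passed. Grb10 was also lost without XY 13.5 dpc replicate 1 (-0.55) or 3 (-0.89), Ppp1r9a without replicate 1 (-0.59) and Impact without replicate 2 (-0.71). With all 36 arrays the count was 4 too. With row sets aligned it was 11, 2 higher (Ascl2 and Cd81) and 9 lower. This comparison shares the XY 13.5 dpc arrays with the comparison of the sexes at 13.5 dpc, so their calls are not independent.

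Markers of other cells also fell with stage in germ cell arrays. The mean of 5 endothelial markers was 6.76 to 7.12 at 11.5 dpc and 6.14 to 6.71 at 13.5 dpc, with 1 of 5 genes lower in each sex. The mean of 4 erythroid markers was 7.08 to 8.0 and then 6.15 to 6.76, with 2 of 4 genes lower in XX and 1 of 4 in XY. The highest erythroid value was that of XY 11.5 dpc replicate 3. The part of such RNA in the stage changes was not tested.

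For 4 genes the stage change itself differed between XY and XX germ cells. The interaction passed for 4 of the 34 genes, all with a more negative change in XY, where 3.23% of all genes passed, 1.58% as higher and 1.65% as lower. It was -2.82 (SE 0.32, adjusted p = 1.18e-08) for Phlda2, whose own change was -3.31 in XY and -0.49 in XX. For Slc38a4 it was -1.64 (SE 0.34, adjusted p = 0.00152), from -2.19 in XY and -0.55 in XX. Plagl1 gave -1.62 (SE 0.37, adjusted p = 0.00495), from -1.03 and 0.59, and Peg3 gave -1.16 (SE 0.29, adjusted p = 0.0108), from -1.57 and -0.42. Peg3 no longer passed without XY 11.5 dpc replicate 3 (-0.89, adjusted p = 0.0805). The interaction of Mest was 1.2 (adjusted p = 0.0722) and did not pass. With all 36 arrays 2 genes passed, Phlda2 (adjusted p = 0.00728) and Slc38a4 (adjusted p = 0.00887).

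**Figure D2:**
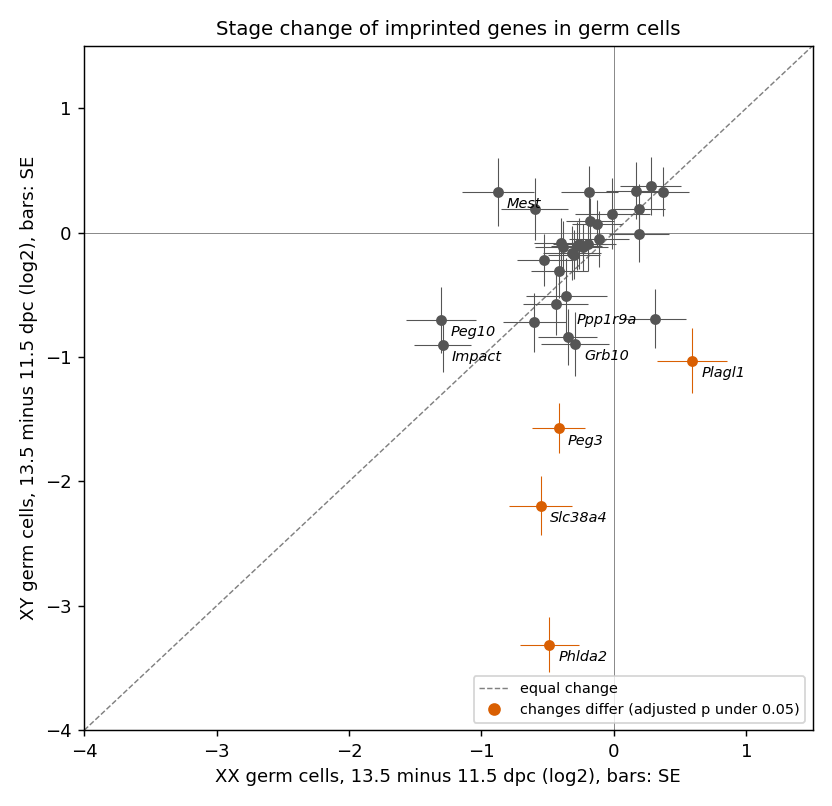
Log2 change from 11.5 to 13.5 dpc in XX (horizontal) and XY (vertical) germ cells for the 34 imprinted genes, with bars of 1 SE and a dashed line of equal change. The 4 genes in orange, whose changes differ by the interaction test, all lie below the line, with Phlda2 at -0.49 and -3.31, while Impact, at -1.29 and -0.90, falls in both sexes.

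Between cell types the imprinted genes differed more widely. Averaged over the 6 groups of each cell type, 25 of the 34 genes differed between germ and supporting cells, 10 higher and 15 lower in germ cells, where 47.2% of all genes passed, 29.1% as higher and 18.1% as lower. With quantile normalisation 7 were higher and 17 lower, and with row sets aligned 9 were higher and 20 lower. Every array of germ cells lay below every array of supporting cells for 8 genes, Peg10, Sgce, Meg3, Grb10, Nnat, Cd81, Ppp1r9a and Airn, while 1.96% of all genes were so separated in this direction. None of the 34 lay wholly above, as 3.28% of all genes did. Germ cell markers were higher in germ cells for 12 of 12 genes and supporting cell markers lower for 10 of 10.

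Peg10 had the largest difference between the cell types, 15.2-fold lower in germ cells (-3.93, SE 0.11, adjusted p = 2.42e-34). It ranged from 6.51 to 9.03 in germ cells and from 11.17 to 12.58 in supporting cells. In its cluster Sgce (-1.93) and Ppp1r9a (-1.88) were lower as well, while Asb4, which encodes an ankyrin repeat protein, was higher in germ cells (1.28, adjusted p = 8.98e-14). Calcr, the calcitonin receptor gene of that cluster, did not pass (-0.08, adjusted p = 0.463) and did with quantile normalisation (-0.16, adjusted p = 0.0436) and with row sets aligned (-0.08, adjusted p = 0.048).

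Zim1 was 8.89-fold lower in germ cells (-3.15, SE 0.10, adjusted p = 2.1e-31). Its ranges still overlapped, 5.31 to 7.08 in germ cells and 6.09 to 11.44 in supporting cells, with XY supporting cells of 13.5 dpc as low as germ cells. Grb10 was lower by a log2 difference of -2.68 (SE 0.11), with 5.99 to 8.25 in germ cells and 8.97 to 10.68 in supporting cells. Igf2 differed by -2.50 (SE 0.10, adjusted p = 7.84e-28), and its ranges overlapped at 6.78 to 8.67 and 8.03 to 11.57. Cd81 differed by -2.49 (SE 0.10) and lay at 8.01 to 9.34 in germ cells against 10.49 to 12.53.

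The noncoding RNAs were low in germ cells. Meg3, read from the maternal allele of the Dlk1-Dio3 cluster, differed by -2.33 (SE 0.10, adjusted p = 1.31e-26), with 6.89 to 8.69 against 9.53 to 10.69. Its maternal neighbour Rian differed by -1.65 (adjusted p = 2.28e-16). Among the paternal genes of the cluster, the Notch-like ligand gene Dlk1 (-0.20, adjusted p = 0.063) and the retrotransposon-derived Rtl1 (-0.14, adjusted p = 0.193) did not pass. Both did with row sets aligned, and Dlk1 also with arrays centred or quantile normalised. The deiodinase gene Dio3 was slightly higher in germ cells (0.30, adjusted p = 0.00198), or by 0.13 with row sets aligned. Its group means of 5.02 to 5.63 were low, and it was among the dim genes left out in 1 alternative fit. Airn, the antisense RNA that silences Igf2r, differed by -1.97 (SE 0.09, adjusted p = 1.66e-24). Its sense partner Igf2r, the receptor that clears IGF2, was at 0.04, or -0.20 with quantile normalisation, and passed in neither. Airn and Igf2r overlap, and the sources used here do not say how the probe sets separate the strands, so both values are uncertain.

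Phlda2 was the member with the largest excess in germ cells (2.29, SE 0.09, adjusted p = 1.95e-27), 4.89-fold on average. That average joins unlike groups: XX germ cells stood at 8.71 to 10.47 at all stages, XY germ cells at 5.77 to 9.39, and supporting cells at 5.85 to 6.69. Among the smaller differences, that of Nap1l4 (0.26, adjusted p = 0.00887) turned to -0.0050 with quantile normalisation (adjusted p = 0.969) and was lost without germ XX 12.5 dpc replicate 2 (0.18). With the left-out array in the fit 24 genes passed.

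**Figure D3:**
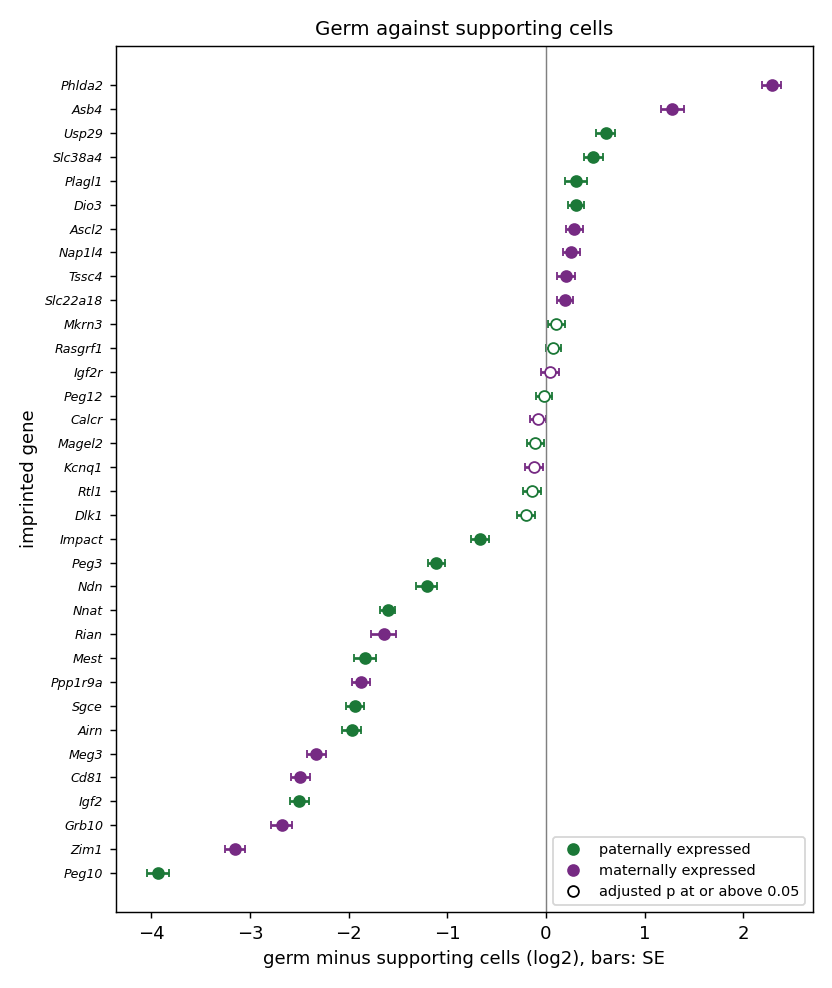
Log2 difference of germ minus supporting cells, averaged over 6 groups each, for the 34 imprinted genes, with bars of 1 SE, green for paternally and purple for maternally expressed genes, and open symbols where the adjusted p is 0.05 or more. Genes of both parental classes lie on both sides, from Peg10 at -3.93 to Phlda2 at 2.29.

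In XX supporting cells, which came from 1 reporter line at every stage, the imprinted genes called over stage all rose. From 11.5 to 13.5 dpc 3 of 34 (8.82%) rose and 0 fell, where 4.1% of all genes passed, 2.37% as higher and 1.73% as lower. Rian stood at 6.48, 6.74 and 6.42 and then at 7.59, 7.75 and 8.17. The stages did not overlap, and the change was 1.30 (SE 0.30, adjusted p = 0.00408). Sgce rose from 7.75, 8.32 and 7.94 to 9.16, 9.28 and 9.30, again with no overlap, by 1.24 (SE 0.22, adjusted p = 4.75e-05). Nnat, which encodes a small proteolipid of the endoplasmic reticulum, rose by 0.74 (SE 0.19, adjusted p = 0.0107), from 9.08 to 9.11 at 11.5 dpc to 9.75 to 9.92 at 13.5 dpc. Over the same days 2 of 7 stromal markers were lower and 1 of 12 germ cell markers was higher, and their part in the result was not tested.

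The count in XX supporting cells was sensitive to the fit. It was 8 in a fit of only the arrays compared, 1 with all 36 arrays, 4 with arrays centred (3 higher, 1 lower) and 9 with row sets aligned (5 higher, 4 lower). The genes added as lower with row sets aligned were Peg3, Grb10, Zim1 and Slc38a4, at -0.61 to -0.46. The call for Nnat was lost without 13.5 dpc replicate 1 (0.70, adjusted p = 0.0642).

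Peg10, Rian and 5 other genes changed differently in germ and supporting cells of XX gonads. This interaction passed for 7 of the 34 genes, all with the more negative change in germ cells, where 8.83% of all genes passed, 3.29% as higher and 5.55% as lower. The values were -1.66 for Rian (adjusted p = 0.00733), -1.61 for Peg10 (adjusted p = 0.0024), -1.44 for Impact (adjusted p = 0.000803), -1.43 for Sgce (adjusted p = 0.000851), -1.23 for Meg3 (adjusted p = 0.0117), -1.18 for Mest (adjusted p = 0.0403) and -0.98 for Nnat (adjusted p = 0.0126). With all 36 arrays 1 gene passed, and that was Impact (adjusted p = 0.0124). Mest did not pass when any of 8 arrays was left out, at -1.17 to -0.98. Meg3 was lost without supporting XX 11.5 dpc replicate 3 (-1.05) or germ XX 13.5 dpc replicate 3 (-0.96), and Nnat without germ XX 11.5 dpc replicate 1 (-0.81) or germ XX 13.5 dpc replicate 2 (-0.80). In the same contrast 5 of 12 germ cell markers were lower and 2 higher (median -0.59), and 1 of 4 erythroid markers was lower (median -0.73). Their part in the result was not tested.

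At 11.5 dpc, when both sexes carried the Sry-EGFP reporter, 0 of 34 genes passed between XY and XX supporting cells, where 3.33% of all genes did, 1.62% as higher and 1.71% as lower. There were 7 with an unadjusted p under 0.05, and 1928 among all 19938 genes. In a fit of only the arrays compared 1 passed limma, where 614 of all genes did. With row sets aligned 4 passed, where 1719 of all genes did. Those 4 were Grb10 (0.74), Nnat (0.58) and Dlk1 (0.57), higher in XY, and Kcnq1 (-0.35), lower in XY. Igf2 stood at 11.48, 11.39 and 11.35 in XX and at 10.85, 10.82 and 10.54 in XY, without overlap, at -0.67 and not past the test.

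At 13.5 dpc Zim1, Igf2, Peg3 and Mest had the largest differences between XY and XX supporting cells, all lower in XY. Of the 34 genes 12 passed, 11 lower and 1 higher in XY, where 12.2% of all genes passed, 7.21% as higher and 5.02% as lower. Paternally expressed genes gave 9 of the calls (of 19) and maternally expressed genes 3 (of 15). The sexes came from different lines and strains here, so the difference cannot be told apart from line and strain. With arrays centred the split was 3 higher and 11 lower, with row sets aligned 6 higher and 12 lower, and with all 36 arrays 7 genes passed. A fit of only the arrays compared gave 19. Of the 10 supporting cell markers 3 were higher and 4 lower in XY, and of 7 stromal markers 1 was higher.

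Zim1 had the largest of these differences, 19.1-fold lower in XY (-4.25, SE 0.25, adjusted p = 2.19e-19). It stood at 10.62, 10.48 and 10.35 in XX and at 6.26, 6.09 and 6.33 in XY at 13.5 dpc, far apart, and its XY values lay within the range of germ cells. Those XY values lay below the array medians of 6.54 to 7.01, where signal is weak and a shared range says little. At 11.5 dpc the XY arrays had been at 10.89, 10.51 and 10.29. At 12.5 dpc, the first stage of the other line, they were at 6.91, 7.04 and 7.49. Its cluster neighbour Peg3 went the same way, at 12.41, 12.60 and 12.51 in XX and 10.10, 10.03 and 10.10 in XY. The groups did not overlap, and the difference was -2.43 (SE 0.20, adjusted p = 4.31e-14). Usp29, the other gene of this cluster among the 34, was lower by a difference of -0.69 (adjusted p = 0.034). That call was lost when any of the 6 arrays compared was left out (-0.75 to -0.61).

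Igf2 was 9.42-fold lower in XY supporting cells (-3.24, SE 0.24, adjusted p = 8.23e-16). It stood at 11.40, 11.23 and 11.30 in XX and at 8.07, 8.12 and 8.03 in XY, again without overlap. Its XY mean went from 10.74 at 11.5 dpc to 8.60 at 12.5 dpc and 8.07 at 13.5 dpc, while the XX mean kept between 11.31 and 11.49. Mest was 3.80-fold lower (-1.93, SE 0.27, adjusted p = 1.8e-07), at 8.79 to 9.05 in XY against 10.75 to 10.92 in XX. The remaining named differences were near -1, with Nnat at -1.06 (adjusted p = 2.97e-05), Peg10 at -1.04 (adjusted p = 0.00372), Sgce at -1.04 (adjusted p = 0.000284) and Slc38a4 at -1.03 (adjusted p = 0.00125). The single higher gene, named after its values were seen, was Cd81 (0.83, adjusted p = 0.00891), a call lost without XX replicate 3 (adjusted p = 0.0506).

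**Figure D4:**
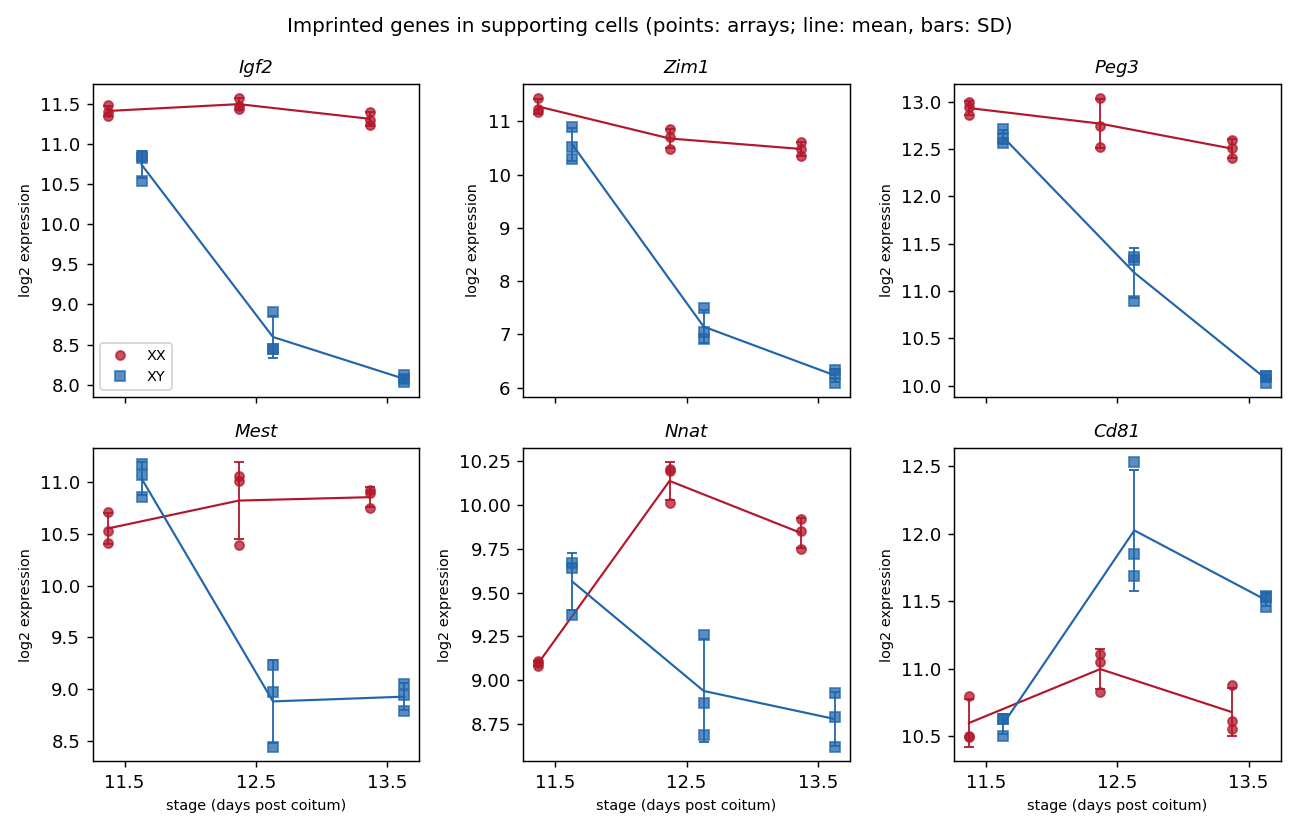
Log2 expression of 6 imprinted genes in supporting cells by stage in dpc, with a point per array (red circles XX, blue squares XY), lines through the group means and bars of 1 SD. XY arrays of 11.5 dpc come from the Sry-EGFP line and those of 12.5 and 13.5 dpc from the Sox9 line, and between these Igf2, Zim1, Peg3 and Mest drop, with Igf2 going from a mean of 10.74 to 8.60.

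In germ cells and in supporting cells several genes were lower in XY at 13.5 dpc, and the values can be set side by side. Peg3 was at -0.64 in germ cells and -2.43 in supporting cells, Igf2 at -1.03 and -3.24, and Slc38a4 at -1.67 and -1.03. Mest was at 1.57 in germ cells and -1.93 in supporting cells, and Peg10 at 0.92 and -1.04. Whether these pairs differ was not tested.

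Over all 11 comparisons 8 of the 34 genes passed in none, and 53.4% of all genes passed in at least 1. These were Igf2r, Peg12, Dlk1, Rtl1, Magel2, Mkrn3, Calcr and Rasgrf1, and the means of their 12 groups spanned from 0.21 for Rasgrf1 to 1.11 for Dlk1. Zim1, by contrast, spanned 5.57, from 5.71 in XY germ cells of 12.5 dpc to 11.28 in XX supporting cells of 11.5 dpc. A call in at least 1 of the 5 comparisons of sex or stage within germ cells was made for 11 of the 34 genes and for 21.2% of all genes. Within supporting cells, over 3 such comparisons, it was made for 13 of the 34 and for 14.7% of all genes.

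**Figure D5:**
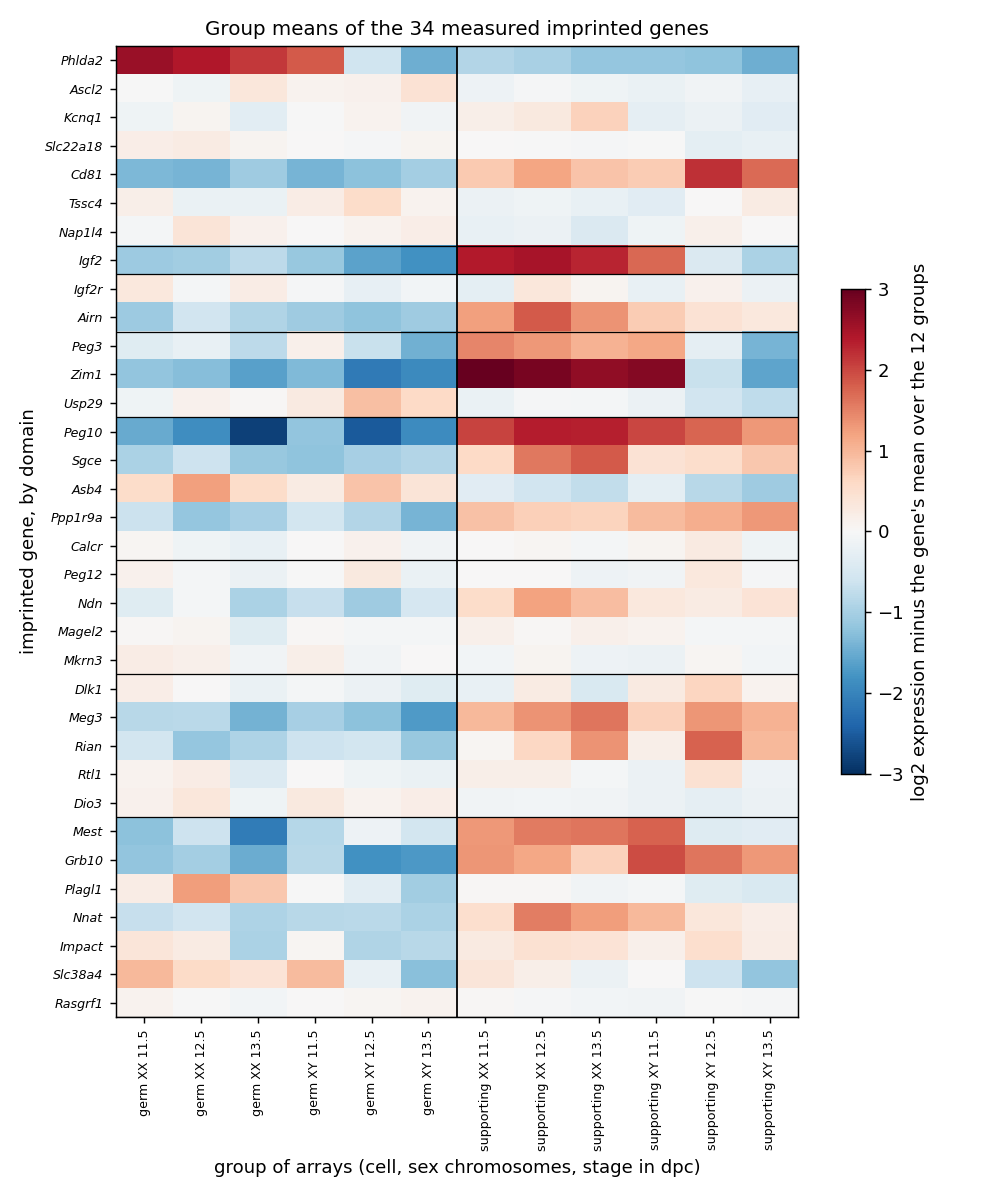
Mean log2 expression of each of the 34 imprinted genes in the 12 groups, minus that gene's mean over the groups, with red for above and blue for below. Rows are ordered by imprinted cluster, with the last block holding genes outside the listed clusters, and Zim1, Peg10, Igf2 and Phlda2 have the widest ranges (5.57, 5.16, 4.30 and 4.07).

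Another list of imprinted genes held 43 symbols, of which 35 were measured. Between XY and XX germ cells 1 of 35 passed at 12.5 dpc (2.86%, against 1.8% of all genes). At 13.5 dpc 5 passed (14.3% against 9.21%), 3 higher and 2 lower. Gatm, an enzyme gene of creatine synthesis, was higher in XY at both stages (1.76, adjusted p = 3.2e-05, and 1.18, adjusted p = 0.000604), and Phactr2 was lower at 13.5 dpc (-1.56, adjusted p = 5.18e-06). In XX germ cells 5 of 35 changed with stage (14.3% against 15.3% of all genes), led by Phactr2 (1.81). In XY germ cells 1 did (2.86% against 7.1%), Gatm (1.84). Germ and supporting cells differed in 17 of 35 (48.6% against 47.2%), among them Gatm (-4.25), the flippase gene Atp10a (2.36), the cell cycle inhibitor gene Cdkn1c (-2.10) and the polycomb gene Sfmbt2 (1.59). In XX supporting cells 3 rose with stage (8.57% against 4.1% called), led by Gatm (3.35). Between the sexes of supporting cells at 13.5 dpc 4 passed (11.4% against 12.2%), Zdbf2 (2.24) and Tspan32 (1.77) higher in XY, Inpp5f (-1.55) and Cdkn1c (-1.14) lower. At 11.5 dpc, within a single line, 2 passed (5.71% against 3.33%): Gatm was higher in XY (2.60, adjusted p = 2.42e-11) and Cdkn1c lower (-0.84, adjusted p = 0.013).

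Genes that write, guard or remove imprints formed a further list, with 19 of 20 measured. Germ and supporting cells differed in 14 (73.7%, against 47.2% of all genes), 8 higher and 6 lower in germ cells. The largest were Dppa3 (4.71), a guard of methylation in the zygote, Zfp57 (-2.62), which keeps imprints, the remodeller gene Hells (2.33) and Tet1 (1.99), which oxidises methylated cytosine. Dppa3 also belongs to the germ cell markers used above, so its call adds nothing beyond the sorting of the cells. Zfp57, whose motif was counted above, stood at a group mean of 6.31 to 6.74 in germ cells and of 8.75 to 9.99 in supporting cells. Uhrf1, which brings the maintenance methyltransferase to new DNA, rose from 11.5 to 13.5 dpc in XX (1.25, adjusted p = 2.25e-05) and XY germ cells (1.03, adjusted p = 0.000757). The insulator gene Ctcf fell in both (-1.26 and -0.88). The corepressor gene Trim28 fell in XX germ cells (-0.97, adjusted p = 0.00045). Between XY and XX germ cells 1 of 19 passed at 12.5 dpc (5.26% against 1.8%), Tet2 (-1.11, adjusted p = 0.00618). At 13.5 dpc 4 passed (21.1% against 9.21%), all higher in XY and led by Arid4a (1.26, adjusted p = 4.73e-05).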

How the data were processed

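The platform was the Affymetrix Mouse Gene 1.0 ST array, with total RNA of sorted cells. The deposited values are log2 expression per probe set. The authors used RMA, according to the submitters' processing notes, and the sources used here give no version or genome build. The table held 35557 probe sets on 36 arrays. GEO's platform annotation gave 21789 of them 1 symbol and 1621 several, and the other 12147 were unnamed here. The 35 arrays used entered a single model in limma 3.58.1 (R 4.3.3) with 12 group means, 23 residual degrees of freedom and empirical Bayes moderation. Two-sided p-values were Benjamini-Hochberg adjusted over 19938 genes per comparison, and an adjusted p under 0.05 counted as a call. The standard error (SE) is moderated and rests on all arrays in the fit. Germ and supporting cells thus share a single spread per gene, which may be too large or too small for the groups compared. No dim genes were left out. The script was tested on simulated data. Tables and plots used Python 3.11.15, numpy 2.4.6, pandas 2.3.3 and matplotlib 3.10.9.

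Within each array the deposited values fell into 3 interleaved sets of table rows (2 sets in 1 array), each on its own linear scale, with medians 0.02 to 0.75 apart. The alternative called row sets aligned brings the 107 sets to a single scale. Their origin is unknown.

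Named genes were, per comparison, at most the 8 largest changes past the test, with per-array values for the 3 largest in germ cells, cluster neighbours beside them, and at most 4 per further list. Members and lists were chosen with earlier results of these data known. Assignments to parental alleles and clusters are textbook ones, and those of Grb10, Ube3a and Gnas, among others, depend on the tissue. Whether a given gene is imprinted in the cells sorted here was not measured. The replicate numbers gave no sign of pairing the samples. In no pair of groups with 3 shared numbers did every number's deviations correlate above 0.1 (range -0.437 to 0.343). This does not exclude a pairing. Interstitial and stromal cell samples were not analysed here.

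Alternatives tried were all 36 arrays, centring or quantile normalising arrays, aligning row sets, leaving out dim genes, the mean of a gene's probe sets, a fit of only the arrays compared, a replicate block, and leaving out each array in turn.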

Additional observations from a re-analysis of the deposited data

Results flagged for a closer look

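The left-out array, labelled germ XX 12.5 dpc replicate 3, carried imprinted gene signal outside the range of its label. In it 22 of the 34 genes lay above every germ cell array used, 9 of them above every array of either cell type. A further 2 lay below every germ cell array. The same counts were not made over all genes, so they do not set imprinted genes apart from other genes. Peg10 was at 12.38 in it, against at most 9.03 in germ cells, Plagl1 at 10.70 against at most 9.73, and Phlda2 at 6.62 against 9.74 and 9.86 in the other XX arrays of that stage.

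For 4 genes the change from 11.5 to 13.5 dpc differed between XY and XX germ cells by limma's interaction test, with -2.82 for Phlda2, -1.64 for Slc38a4, -1.62 for Plagl1 and -1.16 for Peg3. For 7 genes it differed between germ and supporting cells of XX gonads, with -1.66 for Rian, -1.61 for Peg10, -1.44 for Impact, -1.43 for Sgce, -1.23 for Meg3, -1.18 for Mest and -0.98 for Nnat. The second contrast also spans different reporter lines and strains, which cannot be told apart from cell type.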

How the results depend on the processing

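The text named or counted 72 calls of single imprinted genes over the 11 comparisons. Over the alternatives other than leaving out an array they gave 550 values, of which 518 kept direction and call, 31 lost the call and 1 reversed: Nap1l4 in germ against supporting cells with quantile normalisation (-0.00497). With all 36 arrays 24 of the 72 calls were lost. Leaving out each array in turn gave 2520 values, with 91 lost calls, spread over 21 of the 72, and 0 reversals.

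With all 36 arrays the count of imprinted genes called went from 4 to 14 between germ cell sexes at 12.5 dpc, from 7 to 4 at 13.5 dpc, from 3 to 1 over stage in XX and from 7 to 4 in XY germ cells, from 3 to 1 over stage in XX supporting cells, from 12 to 7 between supporting cell sexes at 13.5 dpc, from 4 to 2 for the germ cell interaction and from 7 to 1 for that of XX cells. With row sets aligned it was 7 between germ cell sexes at 12.5 dpc, 7 and 11 over stage in XX and XY germ cells, 9 over stage in XX supporting cells, and 4 and not 0 between supporting cell sexes at 11.5 dpc. In fits of only the arrays compared it was 8 over stage in XX supporting cells, and 1 and 19 between supporting cell sexes at 11.5 and 13.5 dpc. Leaving out an array gave 2 to 5 between germ cell sexes at 12.5 dpc, 2 to 5 over stage in XX and 4 to 9 in XY germ cells.

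Counts over all genes moved too. Between germ cell sexes at 11.5 dpc 5 genes became 20 with row sets aligned, 15 in a fit of the arrays compared and 5 to 9 without 1 array. At 12.5 dpc 358 became 775 with all arrays, 768 centred, 754 quantile normalised and 92 to 431 without 1 array. At 13.5 dpc 1837 became 3450 with row sets aligned and 1194 to 2758 without 1 array. Over stage in XY germ cells 1416 became 924 with all arrays, 2807 with row sets aligned and 935 to 1487 without 1 array. Over stage in XX supporting cells 817 became 2111 with row sets aligned and 1296 in a fit of the arrays compared. Between supporting cell sexes 663 at 11.5 dpc became 392 with all arrays and 1719 with row sets aligned, and 2437 at 13.5 dpc became 5129 with row sets aligned and 4275 in a fit of the arrays compared. The germ cell interaction went from 644 to 281 with all arrays, 1529 with row sets aligned and 413 to 848 without 1 array, and that of XX cells from 1761 to 1115 and 3486. The causes were not tested. Fits of only the arrays compared hold fewer samples, and they take the spread from those samples alone and not from all 12 groups.

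With the replicate number as a block, the count of imprinted genes called between germ cell sexes at 12.5 dpc was 3 and not 4, since Ndn was lost (-1.0, adjusted p = 0.0582), and in germ against supporting cells Tssc4 was lost (adjusted p = 0.0528) and Dlk1 gained as lower (-0.21, adjusted p = 0.0447). The block changed no other call of the 34 genes. Where only XX replicate 1 or 2 stood for its group at 12.5 dpc, it was assumed to vary like the other groups. The number of arrays, and not a known depth, limits precision, and small differences hold only up to the step between row sets.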

Other observations

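The probe sets with several symbols were not tested, and their values are those of all the genes they name. The probe set of Snurf and Snrpn, transcripts of the Prader-Willi cluster, had group means of 10.44, 10.12 and 9.59 in XX germ cells of increasing stage, of 10.82, 10.84 and 10.37 in XY germ cells, and of 8.67 to 9.08 in supporting cells. The probe set of Gnas and its antisense transcript stood at 7.92 to 8.61 in germ cells and 9.36 to 9.53 in supporting cells. That of Ube3a and 3 other symbols stood at 10.51 to 11.04 in all groups, and that of Mirg and a microRNA at 4.71 to 5.90.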
